A study of Homo sapiens with 6 samples.

Results

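The 10 genes followed here encode chemokines of neutrophils, monocytes and lymphocytes, measured by RNA-seq in 3 human lung cancer cell lines. They were chosen by symbol, with earlier results of these data known. They were matched to the Ensembl identifiers of the count table and make up 10 of its 60671 genes. They are CXCL1, CXCL2, CXCL3, CXCL5, CXCL6 and CXCL8, which recruit neutrophils, CCL2 and CCL20, which are secreted CC chemokines, and CXCL16 and CX3CL1, which are anchored in the membrane until shed. A549, HCC827 and H1975, each tagged as a wild-type non-small cell lung cancer line, were grown with the solvent DMSO or with the diterpenoid 9α,11α-dihydroxy-kaurenoic acid, coded AL-X, at 10 µg/mL. RNA was taken after 48 h in both arms, and every line gave 1 DMSO and 1 AL-X library. All are established adenocarcinoma lines, with EGFR mutated in HCC827 and in H1975, so a line stands for 1 tumour and its genotype cannot be told apart from the line itself.

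Chemokines are small secreted proteins that guide leukocytes along a concentration gradient. The neutrophil attractants share a Glu-Leu-Arg (ELR) motif before their first cysteines and act through CXCR1 and CXCR2, while CCL20 binds CCR6 on lymphocytes and dendritic cells, CCL2 binds CCR2 on monocytes and memory T cells, CXCL16 binds CXCR6 and CX3CL1 binds CX3CR1 on T and NK cells. In airway epithelium many of them are induced within hours by interleukin-1, tumour necrosis factor or interleukin-17 through NF-kB, and their mRNAs are short-lived because decay factors bind AU-rich elements.

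The promoters are shown first because the ELR genes lie side by side on chromosome 4 and yet differed in how they moved. RefSeq promoter windows (GRCh38.p14) were at hand for 7 of the 10 genes: the 6 ELR genes and CCL20. CXCL16, CCL2 and CX3CL1 are the others. The 150 bases before the RefSeq transcription start are printed for 6 of them, 5′ to 3′ on the gene's own strand, at chr4:73869243-73869392 (plus strand), chr4:74099196-74099345 (minus), chr4:73998678-73998827 (minus), chr4:73836528-73836677 (plus), chr4:73740419-73740568 (plus) and chr2:227813692-227813841 (plus). Capitals mark matches to the kB core GGAATTTCC, to the NF-kB consensus, to the AP-1 motif TGANTCA and to the TATA box TATAAA.
CXCL1: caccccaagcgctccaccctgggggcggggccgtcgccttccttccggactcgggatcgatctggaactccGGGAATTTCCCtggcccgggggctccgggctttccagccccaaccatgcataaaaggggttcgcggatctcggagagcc
CXCL2: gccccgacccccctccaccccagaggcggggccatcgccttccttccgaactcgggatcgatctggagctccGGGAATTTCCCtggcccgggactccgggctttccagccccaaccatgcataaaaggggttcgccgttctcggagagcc
CXCL5: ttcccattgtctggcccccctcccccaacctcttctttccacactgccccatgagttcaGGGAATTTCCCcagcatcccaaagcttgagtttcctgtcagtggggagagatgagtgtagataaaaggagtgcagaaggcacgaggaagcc
CXCL6: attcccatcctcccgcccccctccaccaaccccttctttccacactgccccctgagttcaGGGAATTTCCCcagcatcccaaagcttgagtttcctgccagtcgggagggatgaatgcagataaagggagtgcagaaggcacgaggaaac
CXCL8: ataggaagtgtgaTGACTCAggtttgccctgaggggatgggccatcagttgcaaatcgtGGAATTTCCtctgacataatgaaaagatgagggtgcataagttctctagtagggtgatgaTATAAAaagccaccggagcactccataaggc
CCL20: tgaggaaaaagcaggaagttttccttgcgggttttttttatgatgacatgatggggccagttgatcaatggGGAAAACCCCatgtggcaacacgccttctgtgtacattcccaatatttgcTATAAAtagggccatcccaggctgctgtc

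Motifs were searched on both strands over the 250 bases before the start. The kB core GGAATTTCC was found in 6 of the 7 promoters, all but CCL20, and in 0.413% of the 35116 promoters in the table. The NF-kB consensus was found in 6 of 7, all but CXCL8, against 5.21% of all promoters. It overlaps the core in each of these except CCL20, which has no core. The match sits close to the start in each of the ELR genes, with its core beginning at position -78 in CXCL1, -77 in CXCL2, -90 in CXCL5, -89 in CXCL6 and -91 in CXCL8, counted back from -1 at the base before the start. TGANTCA was found in CXCL8 alone of the 7 (6.57% of all promoters), TATAAA in CXCL8 and CCL20 (10.7%), and the EGR motif GCGNGGGCG in 0 of 7 (8.41%). The CXCL5 and CXCL6 promoters were 85.3% identical over the aligned window, those of CXCL1 and CXCL3 81.4%, and those of CXCL2 and CXCL3 73.3%. Those of CXCL1 and CXCL2 were 70.4% identical, and those of CXCL1 and CXCL8 42.6%. Matches in promoters this similar are not independent, and the shares were not compared by a test. A match is a string of letters, not a measured binding site.

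Library totals were 98139178 to 126840915 counts, and all 10 genes passed the filter on low counts. Levels are TMM-scaled counts per 1e6 counts of a library (CPM), and levels of different genes are compared only as CPM per kb of merged exon. Summed markers of epithelium were 2802 to 7395 CPM over the 6 libraries. In A549 the sums came mainly from KRT7, KRT8 and KRT18. With DMSO and AL-X there, EPCAM was only 2.67 and 1.47 CPM, KRT19 5.00 and 4.62, and CLDN4 0.92 and 2.98. CDH1 in A549 was at 209 CPM with DMSO and 15.6 CPM with AL-X. The leukocyte genes PTPRC, CD3E, MS4A1 and NKG7 had 0 counts in all 6 libraries. The leukocyte sum of 20.6 to 373 CPM was mainly CD68, which was 69.7 CPM with DMSO and 371 CPM with AL-X in HCC827, and whose part in the chemokine values was not tested. Neutrophil markers summed to 0.312 to 4.69 CPM, fibroblast markers to 1.17 to 20.6 and endothelial markers to 0.254 to 7.20. A lower level in bulk RNA can come from fewer cells that express the gene or from less RNA per cell, and these cannot be told apart.

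With DMSO the lines differed in which chemokines they expressed. HCC827 held the highest DMSO level of 8 of the 10 genes on the TMM scale; CXCL3 and CCL2 were highest in A549. CXCL5, an epithelial neutrophil attractant, led in both A549 (43.9 CPM per kb) and HCC827 (45.0), with CXCL1 next at 19.2 and 43.9. In H1975 CXCL8 led at 9.53 CPM per kb, and CXCL5 was at 1.82. CXCL6 had 0 counts in both A549 libraries, a count of 0 that allows up to 3 counts per library. CCL20 and CX3CL1 were near 0 in A549 (14 and 35 counts) and high in HCC827 (2762 and 8395 counts). With 1 DMSO library per line, these between-line differences have no replicate check.

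**Figure D1:**
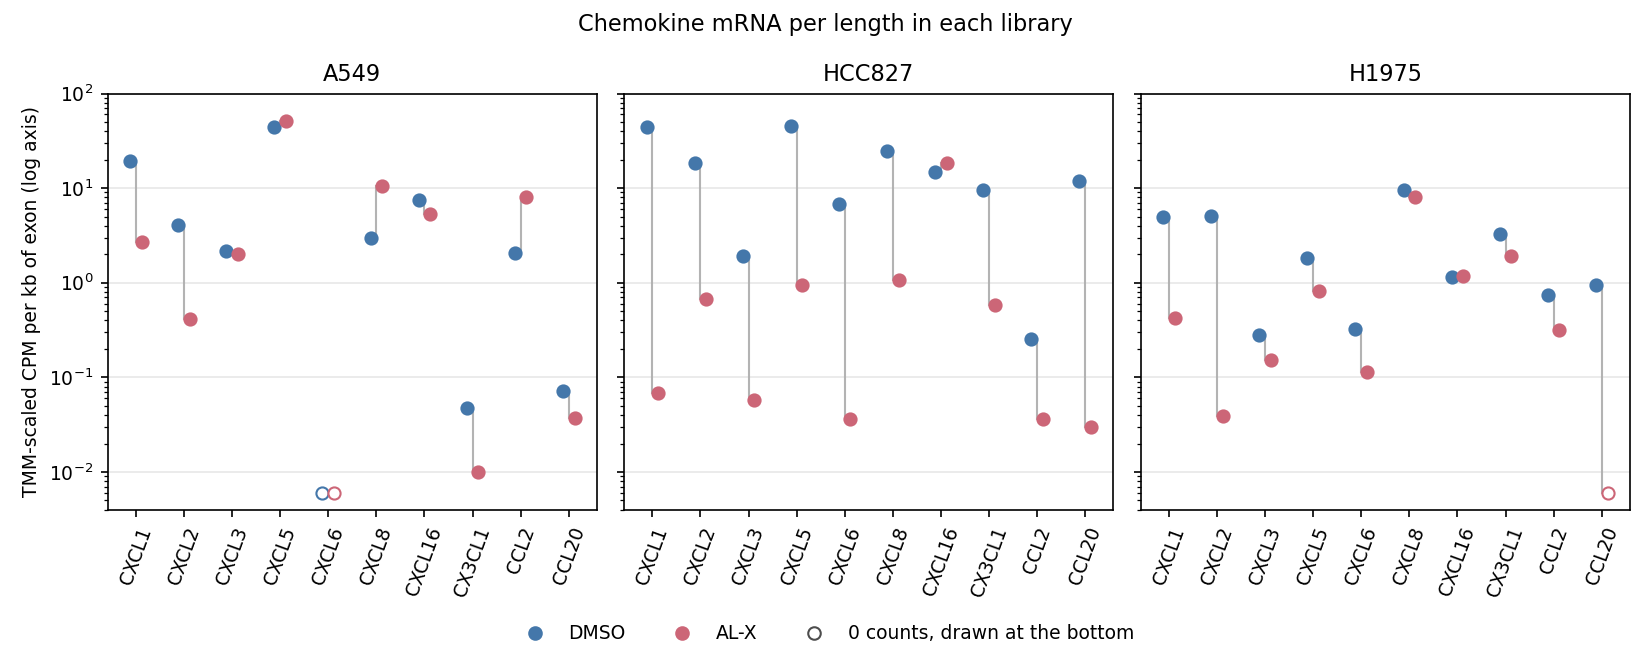
Level of each chemokine gene (horizontal axis) in each library (vertical axis, TMM-scaled CPM per kb of exon, log scale), with 1 panel per cell line, blue points for DMSO, red points for AL-X and open circles at the bottom for 0 counts. The red point lies below the blue for CXCL1 and CXCL2 in every panel, while CXCL8 (2.98 and 10.6) and CCL2 (2.05 and 8.10) are higher with AL-X in A549.

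The first comparison asked whether AL-X moved these genes in the same way in all 3 lines. None of the 10 passed edgeR's quasi-likelihood test with the line as a block: 0 were called higher and 0 lower at an adjusted p under 0.05, where 0.0983% of 20344 tested genes were called higher and 0.157% lower. At an unadjusted p under 0.05, 5 were lower (10.2% of all tested genes) and 0 higher (5.48%). The same data gave 4 lower by DESeq2 (CXCL1, CXCL2, CCL20 and CX3CL1), which called 6.81% of all genes lower, and 3 lower by limma-voom (CXCL1, CXCL2 and CCL20), which called 1.66%. The median across-line log2 fold was -2.11 over the 10 genes and -0.27 over all tested genes. Because the 10 were chosen with earlier results known, values over all genes, here and below, stand beside theirs as a description only. Without HCC827 these were -0.93 and -0.39, and without A549 -3.12 and -0.13. The labels do not say that libraries came from separate cultures. The spread behind these p-values is that between the 3 lines, which was wide, and not that between cultures. Each tool moderated it with the spread of the other genes, so the p-values lean on those genes as well.

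Within a line there is 1 library per treatment and therefore no test. A gene was counted where its libraries differed at least 2-fold and the higher one reached 5 CPM. In HCC827, 7 of the 10 genes were lower (17.2% of 11898 genes) and 0 higher (10.7%). CXCL16 was within 2-fold, and CXCL3 and CCL2 were under 5 CPM in both libraries. In A549, 2 were higher, CXCL8 and CCL2 (30.0% of 11825 genes), 2 were lower, CXCL1 and CXCL2 (31.4%), CXCL5 and CXCL16 were within 2-fold, and CXCL3, CXCL6, CX3CL1 and CCL20 were under 5 CPM. In H1975, 2 were lower, CXCL1 and CXCL2 (17.7% of 11784 genes), 0 were higher (15.4%), CXCL8 and CX3CL1 were within 2-fold, and the other 6 (CXCL3, CXCL5, CXCL6, CXCL16, CCL2 and CCL20) were under 5 CPM. The median log2 fold was -0.49 in A549 over 9 genes, CXCL6 having no counts, and -4.83 in HCC827 and -1.18 in H1975 over all 10. Over all tested genes with more than 3 counts in either library, the medians were -0.36, -0.08 and -0.22. Those background shares are over genes that reached 5 CPM, as 6 of the 10 did in A549, 8 in HCC827 and 4 in H1975, and a gene that reached it only with DMSO could hardly be other than lower.

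The A549 values depend on the scaling. The TMM factor of A549 was 1.12 with DMSO and 0.557 with AL-X, and scaling by library totals alone moved the median of all genes by -1.0 on the log2 scale in A549, -0.41 in H1975 and 0.13 in HCC827. On that scale CXCL8 and CCL2 stood 0.82 and 0.98 above DMSO in A549, both short of 2-fold, so that 0 genes were higher and 4 lower there. Folds are given on the TMM scale unless said otherwise, with a prior count of 2, and bracketed intervals are exact binomial 95% intervals of the count ratio that cover counting error only.

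**Figure D2:**
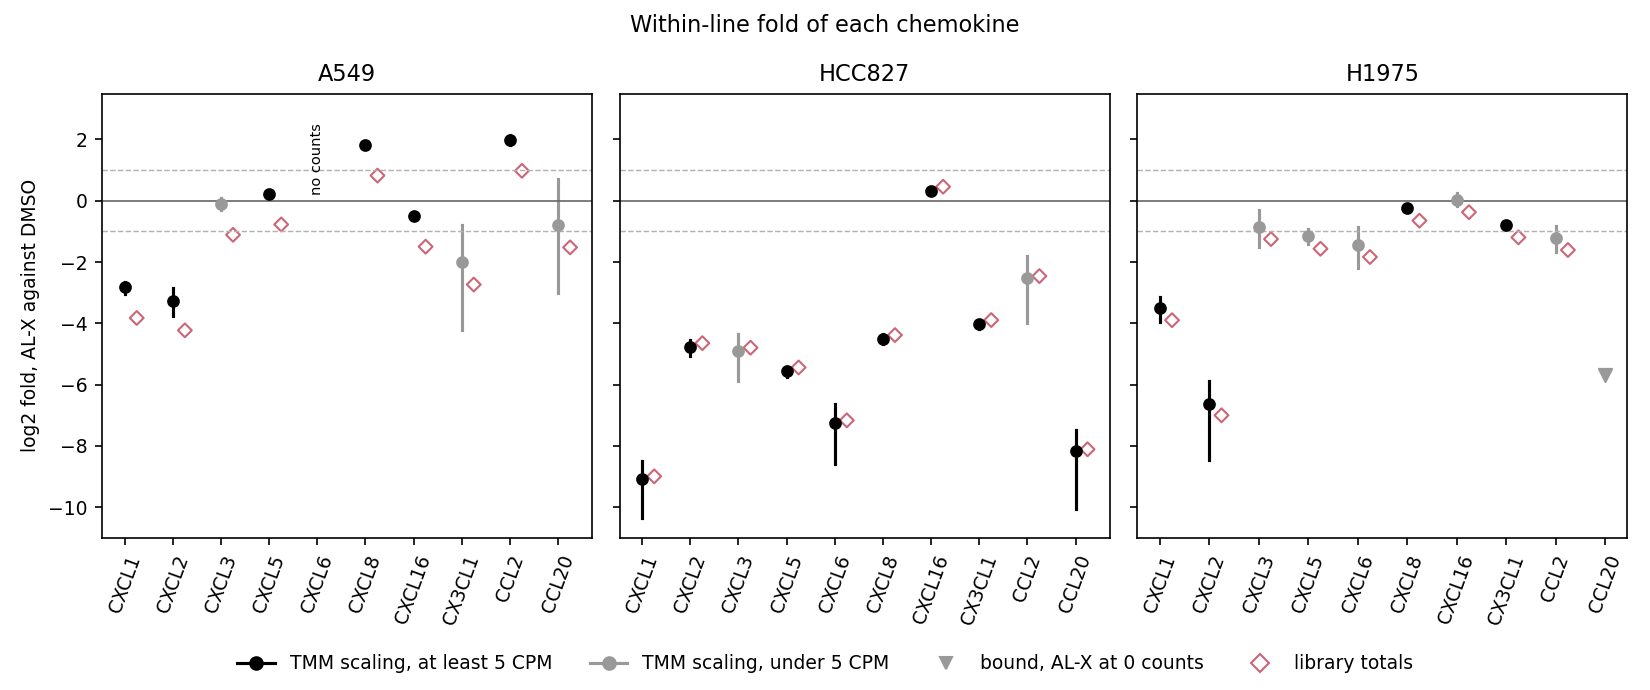
Log2 fold of AL-X over DMSO (vertical axis) for each gene (horizontal axis), with 1 panel per cell line. Filled points are TMM-scaled (grey where under 5 CPM in both libraries) with exact binomial 95% intervals, open diamonds are scaled by library totals, the triangle is the bound for CCL20 in H1975 and dashed lines mark 2-fold. HCC827 holds the lowest fold for 7 of the genes, CCL20 in H1975 being a bound only, CXCL2 is lowest in H1975 (-6.64), and diamonds lie below the points in A549.

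Among the ELR chemokines, CXCL1 and CXCL2 were lower with AL-X in every line. CXCL1, a CXCR2 ligand and a standard NF-kB target, had 3026 counts with DMSO and 235 with AL-X in A549, 8386 and 11 in HCC827, and 804 and 56 in H1975. The AL-X library was the lower in each pair, and the 3 AL-X libraries lie below the 3 DMSO libraries without overlap. The share of all genes that separate in this way was not counted, so the separation is a description only. The log2 folds were -2.83 [-3.03, -2.64] in A549, -9.07 [-10.34, -8.49] in HCC827 and -3.49 [-3.95, -3.14] in H1975. In HCC827 this was 539-fold lower, and only 1 of the 11898 genes there had a lower fold. In A549 1137 of 11825 genes had a lower fold than CXCL1, and in H1975 119 of 11784. Over the lines the log2 fold was -4.63 (SE 1.18, edgeR adjusted p = 0.128).

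CXCL2, a close paralog of CXCL1 made by epithelium and macrophages, had 744 and 42 counts in A549, 4096 and 125 in HCC827, and 954 and 6 in H1975 (DMSO and AL-X). Again no AL-X library reached the lowest DMSO library, with no share over all genes to set beside it. Its log2 folds were -3.26 [-3.78, -2.84], -4.77 [-5.06, -4.54] and -6.64 [-8.45, -5.88], so H1975 held the lowest fold, where 21 of 11784 genes were lower still. In A549 823 of 11825 genes had a lower fold than CXCL2, and in HCC827 69 of 11898. The across-line log2 fold of -4.92 (SE 0.96) had the smallest edgeR p of the 10 genes (adjusted p = 0.0650). Without A549 it passed (adjusted p = 0.00151), as did CCL20 (adjusted p = 5.87e-04), and without H1975 CXCL1 passed (adjusted p = 0.00715). Over all alternatives the adjusted p ranged from 3.26e-08 to 0.570 for CXCL2, from 2.52e-05 to 0.570 for CCL20 and from 1.50e-04 to 0.570 for CXCL1.

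CXCL3, the third of these paralogs, had 592 and 303 counts in A549, 634 and 16 in HCC827 and 78 and 34 in H1975. It was under 5 CPM in all 6 libraries. The HCC827 pair stood apart at a log2 fold of -4.89 [-5.88, -4.36], against -0.11 in A549 and -0.86 in H1975. The transcripts of the trio share sequence: 4.81% of the 50-base words of CXCL1, 12.5% of those of CXCL2 and 6.01% of those of CXCL3 occur in another of the 3. How the authors assigned reads that match more than 1 gene is not given in the sources used here, so counts of the trio are uncertain to that extent.

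CXCL5, an epithelial CXCR2 ligand, had 13568 and 8810 counts in A549, 16845 and 299 in HCC827 and 578 and 208 in H1975. HCC827 was close to A549 with DMSO and close to H1975 with AL-X. The groups overlap because A549 with AL-X (131 CPM) stood above H1975 with DMSO (4.61 CPM). Its log2 fold was -5.57 [-5.75, -5.41] in HCC827 (47.4-fold lower) and -1.16 [-1.40, -0.93] in H1975, and in A549 it was 0.23 on the TMM scale but -0.77 by library totals. CXCL6, which acts through both CXCR1 and CXCR2, had 0 and 0 counts in A549, 2175 and 10 in HCC827, and 88 and 25 in H1975. In the HCC827 pair this was 151-fold lower (log2 fold -7.24 [-8.59, -6.64]). In H1975 it was -1.44 at under 5 CPM. Across lines the edgeR adjusted p was 0.377 for CXCL5 and 0.305 for CXCL6.

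CXCL8 (interleukin-8), the main human neutrophil attractant, went in opposite directions. It had 827 and 1624 counts in A549, 8180 and 302 in HCC827, and 2717 and 1856 in H1975. The AL-X library was the higher of the pair in A549 and the lower in HCC827, so the groups overlap. The log2 folds were 1.83 [1.71, 1.95] in A549, -4.51 [-4.69, -4.35] in HCC827 and -0.24 [-0.33, -0.16] in H1975, or 3.55-fold higher in A549 and 22.8-fold lower in HCC827. The across-line log2 fold was -0.71 (SE 1.12, edgeR adjusted p = 0.767), and it was 0.75 without HCC827.

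Summed over the 6 ELR genes, the level was 72.3 CPM per kb with DMSO and 67.3 with AL-X in A549, 141 and 2.84 in HCC827, and 22 and 9.61 in H1975. HCC827 thus had the highest sum with DMSO and the lowest with AL-X, 49.5-fold lower, while H1975 was 2.29-fold lower. The direction in A549 depended on the measure: per kb the sum was 1.07-fold lower, or 2.14-fold lower by library totals, but without the division by length it was 154 CPM with DMSO and 164 with AL-X. The make-up of the sum changed as well as its size. CXCL1 made 26.5%, 31.2% and 22.5% of it with DMSO in A549, HCC827 and H1975, and 4.00%, 2.40% and 4.44% with AL-X. CXCL8 went from 4.13% to 15.8% in A549, from 17.4% to 37.5% in HCC827 and from 43.4% to 84.0% in H1975. CXCL5 kept the first place in A549 (60.7% and 76.6%). The share of CXCL2 was lower with AL-X in A549 (5.63% and 0.62%) and H1975 (23.1% and 0.41%) and higher in HCC827 (13.2% and 23.5%). A share within a library does not depend on the scaling.

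**Figure D3:**
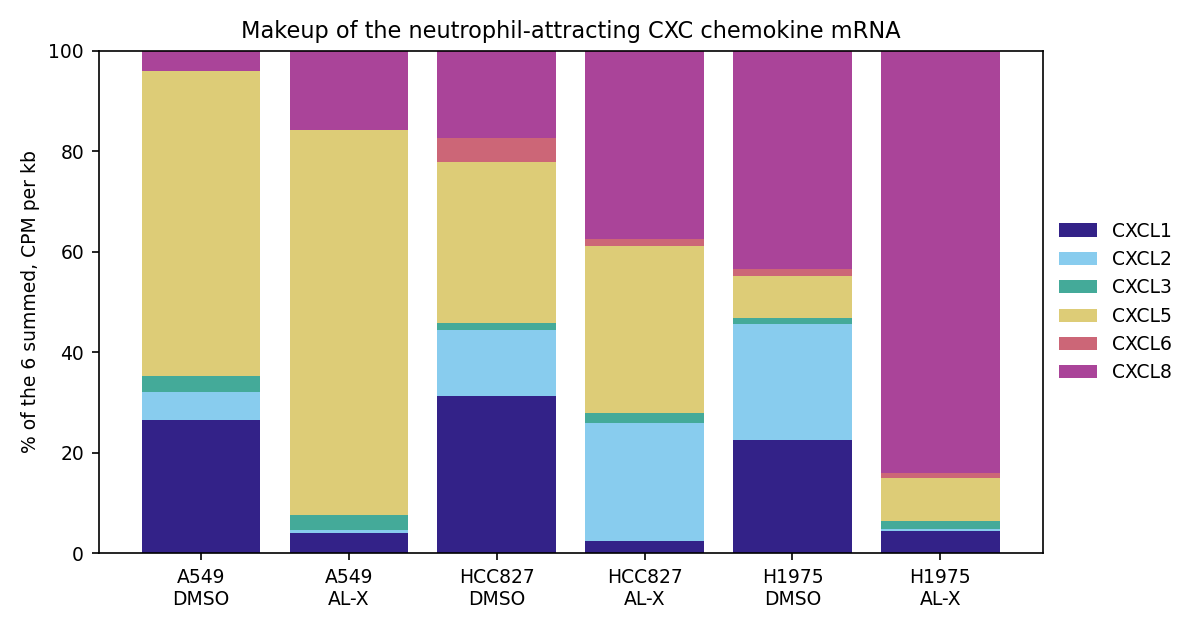
Share of each ELR gene in the summed CPM per kb of the 6 (vertical axis, percent) in each of the 6 libraries (horizontal axis), stacked by gene. CXCL8 takes a larger share with AL-X in each line, up to 84.0% in H1975, and CXCL1 a smaller one.

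Beyond the neutrophil attractants, CCL20, the CCR6 ligand, had 14 and 4 counts in A549, 2762 and 6 in HCC827, and 190 and 0 in H1975. HCC827 with DMSO was the only library with more than 5 CPM, and its AL-X partner was 286-fold lower (log2 fold -8.16 [-10.05, -7.48]). H1975 was at least 51.1-fold lower, taking 3 counts as the floor of the empty library. Its binomial 95% interval allows a smaller change, up to a log2 fold of -5.36. The across-line log2 fold was -6.49 (SE 1.94, edgeR adjusted p = 0.170). CCL2, a monocyte attractant, had 495 and 1084 counts in A549, 74 and 9 in HCC827 and 183 and 63 in H1975. Like CXCL8 it was higher with AL-X in A549, 3.95-fold (log2 fold 1.98 [1.83, 2.14]). In the other lines it was lower at under 5 CPM, with log2 folds of -2.54 in HCC827 and -1.21 in H1975. Its across-line log2 fold of -0.73 (SE 1.13, edgeR adjusted p = 0.761) was 0.20 by limma-voom and 1.48 without the line as a block.

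CX3CL1 (fractalkine), a membrane-anchored ligand that also acts as an adhesion molecule, had 35 and 4 counts in A549, 8395 and 436 in HCC827 and 2458 and 1151 in H1975. Every AL-X library was below its DMSO partner, but the groups overlap because A549 hardly expressed the gene. The log2 folds were -4.02 [-4.17, -3.89] in HCC827 (16.2-fold lower) and -0.78 [-0.89, -0.68] in H1975, where library totals gave -1.19. Across lines it was -2.36 (SE 0.79, edgeR adjusted p = 0.208). CXCL16, the other membrane-anchored ligand and a scavenger receptor, had 2559 and 1004 counts in A549, 6072 and 6465 in HCC827 and 404 and 334 in H1975. It stayed within 2-fold on the TMM scale in each line, at -0.49, 0.33 and 0.03 on the log2 scale, although library totals gave -1.5 in A549. Its across-line log2 fold was -0.04 (SE 0.52, edgeR adjusted p = 0.975).

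The order of the genes within a library shifted with this. CXCL16 was the fifth of the 10 by CPM per kb in HCC827 with DMSO and the first with AL-X, at 14.7 and 18.5 CPM per kb. In A549 CCL2 went from place 7 to place 3. CXCL8 was first in H1975 in both libraries. Over the 6 libraries, log2 CPM of CXCL3 and CXCL5 had a Pearson r of 0.97, CXCL6 and CX3CL1 0.91, CXCL2 and CCL20 0.89, and CX3CL1 and CCL2 -0.68. These describe 6 libraries that share 3 lines and are not independent points.

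An interaction term in edgeR tested whether AL-X acted differently on a gene in 1 line than in the mean of the other 2. The fit has 1 residual degree of freedom and takes the spread of the single line to be that of the other 2. That spread was moderated with the spread of all tested genes, so the p-values rest largely on other genes. For HCC827, 3 of the 10 genes passed (0.261% of 20344 genes): CXCL1 with a difference of -6.14 on the log2 scale (SE 1.5, adjusted p = 0.0195), CXCL5 with -5.12 (SE 1.19, adjusted p = 0.00972) and CXCL8 with -5.31 (SE 1.36, adjusted p = 0.0396). At an unadjusted p under 0.05, 5 genes did (8.19% of all genes), with CXCL3 at -4.57 (adjusted p = 0.508). The fifth was CXCL6, whose difference rests on HCC827 and H1975 alone, since it has no counts and so no fold in A549. For CXCL2 the difference was 0.19 (SE 1.54). By library totals the 3 differences were -5.30, -4.28 and -4.48 and none was called (adjusted p = 0.632, 0.632 and 0.640), nor was any other of the 20344 genes.

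For A549 none of the 10 was called (0.280% of genes), and 3 had an unadjusted p under 0.05 (11.0% of genes): CCL20 at 7.88 (adjusted p = 0.121), CXCL8 at 4.2 (adjusted p = 0.335) and CCL2 at 3.94 (adjusted p = 0.409). The CCL20 value rests on 14 and 4 counts in A549 and on a library with 0 counts in H1975. For H1975 none of the 10 and 0% of all genes were called by edgeR, with 0 of the 10 and 236 of all genes (1.16%) at an unadjusted p under 0.05. No other tool was run for this test.

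The 6 ELR genes lie within 358.788 kb of chromosome 4 (chr4:73740506-74099293, GRCh38, GENCODE 29), with CXCL8, CXCL6 and CXCL1 on the plus strand and CXCL5, CXCL3 and CXCL2 on the minus strand. Within 500 kb of the cluster, 5 other genes reached 5 CPM. EREG and AREG, which encode the EGFR ligands epiregulin and amphiregulin, had 2914 and 9728 and 1939 and 9642 counts in A549 with DMSO and AL-X, 19604 and 2387 and 15867 and 6869 in HCC827, and 4376 and 9163 and 3111 and 6226 in H1975. Both were thus higher with AL-X in A549 (log2 fold 2.59 and 3.17) and H1975 (1.37 and 1.31) and lower in HCC827 (-2.80 and -0.97). In H1975 that differs in sign from the 6 chemokine genes beside them. ANKRD17, an ankyrin repeat gene on the other side of the cluster, was at -0.22, -0.23 and -1.14 in A549, HCC827 and H1975. MTHFD2L, a mitochondrial folate enzyme, was at 0.89, -0.69 and 0.02 (-0.11, -0.56 and -0.39 by library totals), and RASSF6 was at -1.99 and -0.07, with 0 counts in both H1975 libraries. None of the 5 passed the across-line test. The other members lie elsewhere: CXCL16 (chr17:4733526-4739922, minus strand) and CCL2 (chr17:34255218-34257203, plus) on chromosome 17, CX3CL1 (chr16:57372458-57385048, plus) on chromosome 16 and CCL20 (chr2:227805739-227817564, plus) on chromosome 2.

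**Figure D4:**
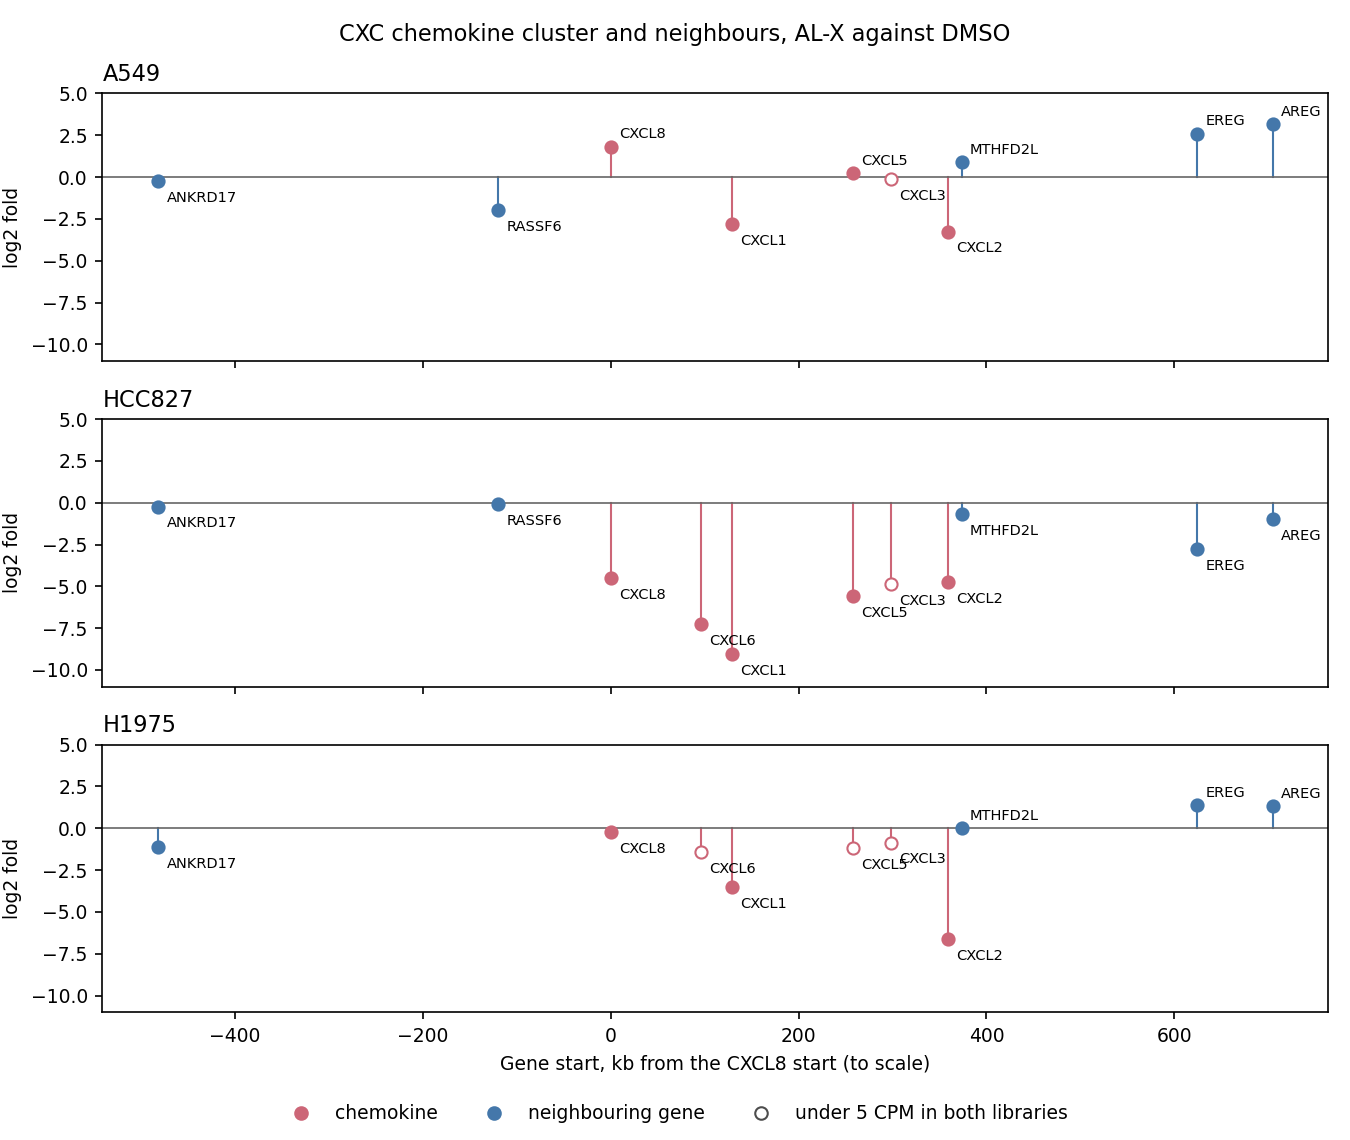
Log2 fold of AL-X over DMSO (vertical axis, TMM scale) against the distance of a gene's start from that of CXCL8 (horizontal axis, kb) for the ELR chemokine genes (red, open where under 5 CPM in both libraries) and their neighbours (blue), with 1 panel per cell line. In HCC827 the 6 chemokine genes lie from -4.51 to -9.07, while EREG and AREG stand at -2.80 and -0.97. In A549 the cluster holds both lower and higher genes.

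Most receptors and other chemokines had too few counts to be tested. Of 22 receptor genes 4 were tested, and of 27 other chemokine genes 5 were. By edgeR across lines 0 were called in either direction, where 0.0983% of all tested genes were called higher and 0.157% lower. The median across-line log2 fold was -3.09 over the 4 receptors and -0.91 over the 5 other chemokines. Only 1 receptor reached 5 CPM, in A549, at a log2 fold of -2.02 (-3.02 by library totals). CCL28, a mucosal chemokine, was the only one of the 27 to average 5 CPM, at 8.11 and 10.1 CPM in HCC827 and 14.7 and 5.54 CPM in H1975 with DMSO and AL-X. It was under 0.1 CPM in A549.

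Genes that act upstream of the chemokines were read from lists chosen by function. Beside their 2-fold counts stand the shares of all genes at 5 CPM, which were 30.0% higher and 31.4% lower in A549, 10.7% and 17.2% in HCC827, and 15.4% and 17.7% in H1975. Of 17 NF-kB and co-activator genes, all tested, 0 were called across lines. At 2-fold, 7 were higher and 4 lower in A549, 7 and 6 in HCC827, and 4 and 4 in H1975, with medians of 0.97, -0.21 and 0.47 that were -0.03, -0.09 and 0.06 by library totals. BIRC3, an NF-kB target that restrains cell death, was lower in every line (log2 fold -2.92, -2.03 and -4.83 in A549, HCC827 and H1975, across lines -3.24, SE 0.74, edgeR adjusted p = 0.109), as was BCL3 (-2.70, -1.16 and -1.21, adjusted p = 0.187). NFKBIB, an NF-kB inhibitor, was higher in every line (2.45, 1.31 and 1.47, adjusted p = 0.151). NFKBIZ, a nuclear co-activator of NF-kB targets, was higher in A549 (5.11) and H1975 (3.5) and lower in HCC827 (-1.27), at 10.1 and 350 CPM, 34.9 and 394 CPM, and 132 and 55.1 CPM.

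Of 13 AP-1, CEBP and EGR factors, 1 was called higher across lines, ATF3, a stress-induced repressor and activator (log2 fold 4.91, SE 0.81, edgeR adjusted p = 0.0327), which was named after its value was seen. It was at 1.17 and 182 CPM in A549, 19.2 and 174 CPM in HCC827 and 5.36 and 123 CPM in H1975, higher with AL-X in each line, and by library totals no gene was called. At 2-fold, 12 of 13 were higher and 0 lower in A549 (30.0% of all genes higher), and 6 of 12 were higher and 1 lower in HCC827 (10.7%) and in H1975 (15.4%). The medians were 3.66, 1.22 and 0.97. FOS was at 5.06 and 4409 CPM in A549, 4.82 and 17.9 CPM in HCC827 and 3.65 and 942 CPM in H1975. FOSB went the same way at log2 folds of 16.31, 3.24 and 8.68. With DMSO it was at only 0.049, 1.32 and 0.295 CPM in A549, HCC827 and H1975, so the size of these folds is uncertain. FOS and FOSB both missed the across-line threshold (edgeR adjusted p = 0.12 and 0.195). CEBPD, an acute-phase factor, was higher in A549 (1.72) and lower in HCC827 (-1.97).

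The mRNA decay genes, 14 in number, gave 0 calls across lines. At 2-fold, 5 were higher and 1 lower in A549, 1 and 2 in HCC827, and 2 and 4 in H1975. ZFP36 (tristetraprolin), which binds AU-rich elements, was at 19.4 and 1476 CPM in A549, 15.9 and 32.0 CPM in HCC827 and 5.36 and 69.2 CPM in H1975. Every AL-X library was above its DMSO partner (log2 fold 6.25, 1.01 and 3.69, across lines 3.66, SE 1.00, edgeR adjusted p = 0.150). ZC3H12A (regnase-1), an endonuclease for inflammatory mRNAs, was higher in A549 (4.82) and H1975 (1.23) and at -0.92 in HCC827. PAN2, a deadenylase subunit, was lower in each line (-1.67, -1.08 and -1.07). The part of these factors in the chemokine levels was not tested.

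Of 19 inducing cytokines and receptors, 16 were tested and 0 called across lines. At 2-fold, 2 were higher and 5 lower in A549, 0 and 3 in HCC827, and 1 and 3 in H1975, with medians of -1.30, -0.09 (0.04 by library totals) and -0.41. IL1R1, the interleukin-1 receptor, was at 93.5 and 15.2 CPM in A549 (log2 fold -2.62), and at -0.09 in HCC827 and -0.35 in H1975. CSF1, a macrophage growth factor, was at -3.24, -0.08 and -0.81. IL18 was higher in A549 and H1975 (1.48 and 1.44) and at -0.76 in HCC827, and IL1RAP was at 1.77, 0.40 and -0.48.

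Of 12 surface proteases and processing genes, all tested, 0 were called across lines. At 2-fold, 3 were higher and 1 lower in A549, 4 and 0 in HCC827 and 3 and 0 in H1975, with medians of -0.04, 1.11 and 0.39 (-0.02 by library totals). CTSL, a lysosomal protease, was higher in each line (1.22, 3.16 and 1.5, edgeR adjusted p = 0.211). RHBDF1, a partner of the sheddase ADAM17, was likewise higher (1.41, 1.31 and 1.23, adjusted p = 0.216), while its paralog RHBDF2 was at -2.92, -0.36 and 0.26 (-0.15 by library totals). ADAM17 releases CX3CL1 from the cell surface, and its product was not measured.

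**Figure D5:**
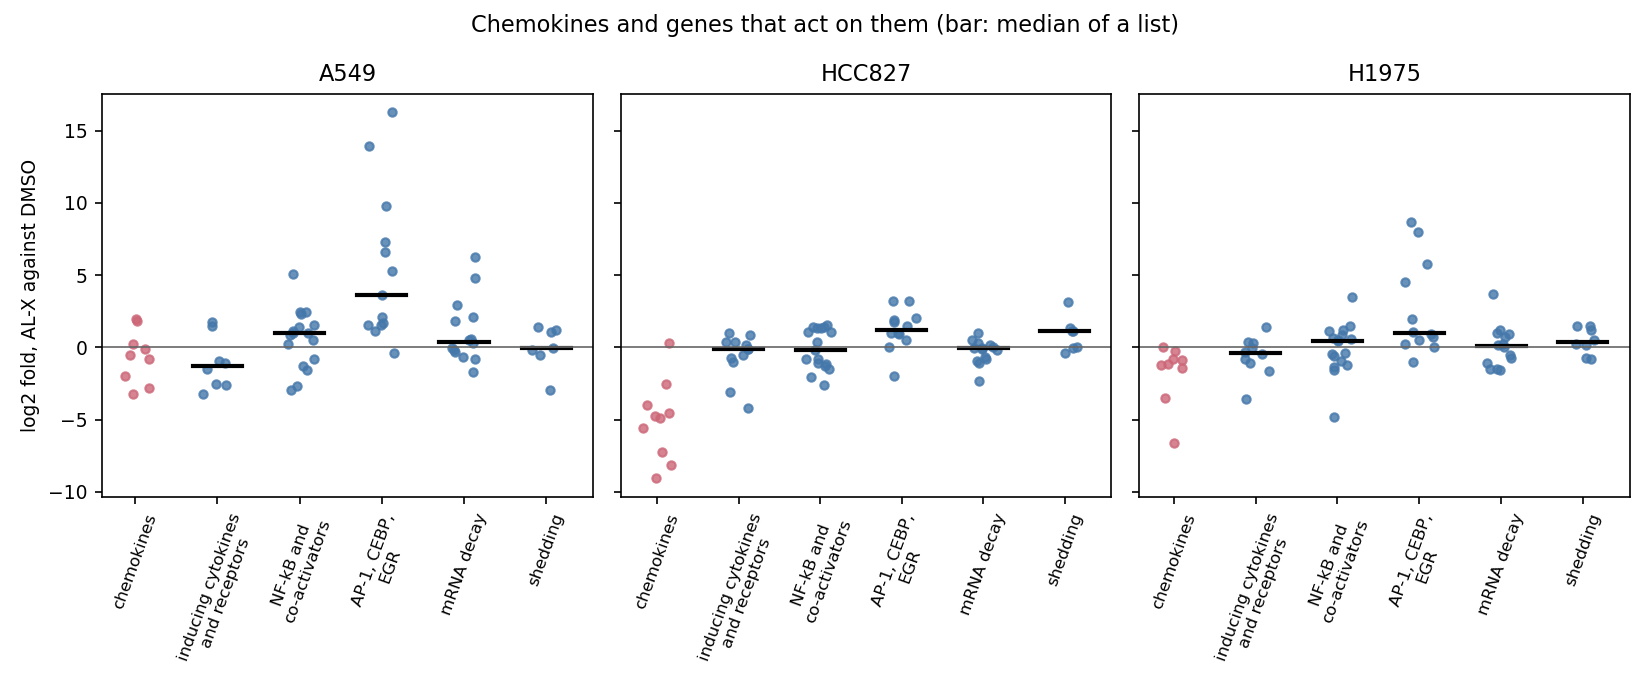
Log2 fold of AL-X over DMSO (vertical axis, TMM scale) by functional list (horizontal axis), with 1 panel per cell line and each point a gene. Red points are the chemokine genes with counts in both libraries, blue points are list genes with at least 5 CPM in either library, and bars are list medians. The AP-1, CEBP and EGR list lies mostly above 0 in A549, with a median of 3.66, and the NF-kB list spreads to both sides of 0 in all lines.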

How the data were processed

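RNA-seq libraries of 3 cell lines, 1 with DMSO and 1 with AL-X each, were compared. Per the labels' protocols, Trizol was used for total RNA and the SureSelect XT HS2 mRNA kit for library construction. Per the submitters' processing notes, the tools and build were bcl2fastq 2.20 and GRCh38. Not given in the sources used here are the aligner and counter, the gene annotation, strandedness, the read length and whether molecular barcodes were collapsed. The authors deposited raw counts per Ensembl gene, whole numbers that were not normalized, in 1 table of 60671 genes, and 0 of its columns lacked a sample. Of the identifiers, 60401 matched a symbol and 58453 matched GENCODE release 29 (GRCh38), from which positions and exon lengths were taken.

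The across-line effect came from a robust quasi-likelihood test in edgeR 4.0.16 (R 4.3.3), with TMM factors, filterByExpr (20344 genes), cell line as a block, 2 residual degrees of freedom and Benjamini-Hochberg adjustment at 0.05. Cell lines pair the libraries: deviations of same-line libraries from their group means correlated at 0.656, 0.521 and 0.695 in A549, HCC827 and H1975. Within a line no test was made. Folds used a prior count of 2, a minimum of 5 CPM and a 2-fold threshold, and a 0 was set to a floor of 3 counts per library. Intervals and floors cover counting error only. Scripts were tested on simulated data. Alternatives were other scalings, filters, tools (DESeq2 1.42.0, limma 3.58.1), thresholds, no block, and each line left out.

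All 10 genes were named, with the 2 highest and 2 lowest across-line folds of each list at a mean of at least 5 CPM, and for each member that reached 5 CPM the 3 protein-coding genes with the highest r; 1 of these is not reported here. The members and lists were chosen with earlier results of these data known.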

Additional observations from a re-analysis of the deposited data

Results flagged for a closer look

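For 3 of the 10 genes the effect of AL-X in HCC827 differed, by edgeR's interaction test, from the mean effect in A549 and H1975. The difference was -6.14 on the log2 scale for CXCL1 (adjusted p = 0.0195), -5.12 for CXCL5 (adjusted p = 0.00972) and -5.31 for CXCL8 (adjusted p = 0.0396). Each HCC827 fold was the lowest of the 3 lines for these genes. The test has 1 residual degree of freedom, and HCC827 is represented by 1 library per treatment. Its p-values rest largely on the spread of the other tested genes, with which edgeR moderated that of each gene. With DESeq2 size factors and with mitochondrial genes left out before scaling the 3 genes were called as well, and by library totals none was.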

How the results depend on the processing

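Each cell line gave 1 library per treatment, so within-line folds have no replicate check. Counts were low for CX3CL1 and CCL20 in A549, and 0 for CXCL6 in A549 and for CCL20 in H1975 with AL-X. Across lines, the count of 0 members called lower was 4 by DESeq2, 3 by limma-voom and 0 to 2 with 1 line left out, where 1 residual degree of freedom remained; it was 0 under the other alternatives, and 0 were called higher under any. Over all genes the 52 calls became 0 by library totals, 0 with no filter, 0 with no replicate block, 10 with mitochondrial genes left out, 1986 by DESeq2, 661 by limma-voom and 106 to 184 with 1 line left out. The cause was not tested. With no replicate block, 0 members were called in either direction, CCL2 stood at 1.48 and CXCL16 at 0.098. CCL2 was at 0.20 by limma-voom. With 1 line left out, CCL2 ranged from -1.93 to 0.36, CXCL16 from -0.27 to 0.23 and CXCL8 from -2.33 to 0.75. Without HCC827, CXCL6 went from -4.33 to -1.32, CXCL5 from -1.87 to -0.50, CXCL3 from -1.76 to -0.53, CX3CL1 from -2.36 to -1.42 and CCL20 from -6.49 to -4.28, none of them called with or without it. Without A549, CXCL3 was at -2.91 and CXCL5 at -3.33, and without H1975 CXCL6 was at -7.38. The A549 line difference of CX3CL1 was 0.15 and by library totals -0.69. The 3 line differences called in HCC827 became 0 by library totals. Of the members at 2-fold in A549, the 2 higher became 0 by library totals and 0 at 4-fold, and the 2 lower became 4 by library totals and 1 at a minimum of 10 CPM. In H1975 the 2 lower became 4 by library totals, 5 at a minimum of 1 CPM and 0 at 10 CPM. The 7 lower in HCC827 moved by less than 1.5 times under each alternative.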

Other observations

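Chemokines are held at the cell surface by heparan sulfate, and the genes of its carriers and enzymes were read as a further list of 12, of which 11 were tested and 0 called across lines by edgeR. In each line 9 of them reached 5 CPM. At 2-fold, 1 of the 9 was higher and 5 lower in A549 (30.0% and 31.4% of all genes). In HCC827 1 was higher and 1 lower (10.7% and 17.2%), and in H1975 2 were higher and 0 lower (15.4% and 17.7%). SDC4, a syndecan, was at 42.6 and 514 CPM in A549, 336 and 440 CPM in HCC827 and 344 and 748 CPM in H1975 with DMSO and AL-X. GPC1, a glypican, was at 226 and 349 CPM, 40.01 and 176 CPM, and 99.3 and 536 CPM. HS6ST1, a heparan sulfate sulfotransferase, was at 82.4 and 2.60 CPM in A549, with log2 folds of -0.38 in HCC827 and 0.04 in H1975 (-0.37 by library totals). SDC3 was at -2.70, -0.33 and -0.37 in the 3 lines. None of these 4 passed the across-line test, and library totals turn GPC1 in A549 to -0.38.

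The genes whose log2 CPM followed that of a chemokine most closely over the 6 libraries, among 11000 compared, are given as a description, since the libraries share 3 lines and any 6 points reach a high r with some of so many genes. For CXCL1 they were C1orf112, FJX1 and CCNA2 (r = 0.99 each), and for CXCL2 they were DHRS1, SOX4 and PRKD3 (r = 0.98 each). SOX4, a developmental transcription factor, was at 57.0 and 13.9 CPM in A549, 215 and 37.0 CPM in HCC827 and 77.5 and 6.15 CPM in H1975, lower with AL-X in each line and lowest in fold in H1975, as CXCL2 was. For CXCL8 they were CTNNB1 (r = 0.96), U2SURP (r = 0.94) and PSME1 (r = 0.94), and only CTNNB1 passed 0.95. For CXCL5 they were PKP2, ZNG1B and DBNDD1 (r = 0.99 each), and for CXCL6 SLC22A31, CTSS and TNFSF13 (r = 0.995, 0.994 and 0.980). For CX3CL1 they were KCNQ5, TDP1 and CFB (r = 0.996, 0.993 and 0.989). CFB, complement factor B, was at 334 and 58.8 CPM in HCC827, 170 and 177 CPM in H1975 and 11.2 and 8.70 CPM in A549, so it did not follow CX3CL1 between the H1975 libraries. For CXCL16 they included CPVL and VEGFC (r = 0.99 each), both at 0 CPM in H1975, for CCL2 PIH1D1, TRNT1 and PRKAR1A (r = 0.992, 0.987 and 0.985), and for CCL20 DOP1A, ENSG00000258790 and KLHDC4 (r = 0.974, 0.968 and 0.95).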
